A study of Mus musculus with 12 samples.

Results

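The genes described here are 38 regulators and effectors of cell division, chosen by exact match of their symbols to the gene names of a table of 55487 mouse genes, in which all 38 were found. They comprise cyclins of the D, E, A and B types, cyclin-dependent kinases and 2 of their inhibitors, the replication licensing and DNA synthesis machinery, mitotic kinases and checkpoint proteins, and the transcription factors *E2f1* and *Myc*. They were measured by RNA-seq of whole retina in 12 libraries, 2 for each of 6 groups. WT (C57BL/6J), sh*Pax6* and JNK3 KO (*Jnk3*-/-) retinas each received an injection into the vitreous of 1 µL of PBS or of 40 mM NMDA (40 nmol), a glutamate receptor agonist that kills retinal ganglion cells (RGCs) by excitotoxicity. The sh*Pax6* retinas came from mice infected with AAV2.7m8 carrying pU6-sh*Pax6*-GFP, in which a U6 promoter drives the hairpin RNA in whichever cells the virus enters. JNK3 KO mice lack *Jnk3* (*Mapk10*) from the germline. By the study's figure legends the WT and sh*Pax6* mice were 2 months old, and each library pooled more than 3 retinas. None of the 12 libraries came from retinas given the scrambled control vector, so viral infection and *Pax6* knockdown cannot be told apart. The libraries of a group were described as biological replicates, and the p-values measure the spread between such pools of retinas.

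To divide, a cell first accumulates D-type cyclins, which activate CDK4 and CDK6 to phosphorylate the retinoblastoma protein and so free E2F factors. E2F targets such as cyclin E, the MCM helicase and PCNA carry out DNA replication, and cyclins A and B with CDK1, the Aurora kinases and PLK1 drive mitosis, while inhibitors such as p27Kip1 hold the sequence back. Neurons of the adult mammalian retina have left the cycle, Müller glia are quiescent but can re-enter it after injury, and immune cells that enter an injured retina may divide.

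Promoters of 31 of the 38 genes were available from RefSeq on GRCm38.p6, as 250 bases before to 50 bases after the transcription start. They were searched on both strands for E2F sites (TTTGGCGC, TTTCCCGC, TTTGCCGC or TTTCGCGC), the cell cycle homology region or CHR (TTTGAA), the CCAAT box (CCAAT) and the E-box bound by MYC and its relatives (CACGTG). An E2F site was found in 8 of the 31 promoters (25.8%), compared with 2.3% of all 27025 promoters. A CHR was found in 10 (32.3%, compared with 18.1%), a CCAAT box in 21 (67.7%, compared with 37.9%) and an E-box in 3 (9.7%, compared with 7.2%). Of the 8 promoters of replication licensing genes, 6 held an E2F site. A CHR together with a CCAAT box, the pair typical of genes expressed in G2 and mitosis, was present in 8 of the 11 promoters of mitotic members, in 2 of the 20 others and in 7.1% of all promoters. The *Cdk4* promoter held 4 E-boxes, a number reached by 6 of all promoters (0.0222%). The 3 promoters printed here show each of these layouts in a gene called higher after NMDA, for *Top2a* with the limits given below, and capitals mark every match. *Cdk4* (chr10:127063285-127063584, plus strand) shows the E-boxes, *Mcm3* (chr1:20820263-20820562, minus strand) the E2F sites and *Top2a* (chr11:99024140-99024439, minus strand) the CHR with CCAAT boxes.
Cdk4: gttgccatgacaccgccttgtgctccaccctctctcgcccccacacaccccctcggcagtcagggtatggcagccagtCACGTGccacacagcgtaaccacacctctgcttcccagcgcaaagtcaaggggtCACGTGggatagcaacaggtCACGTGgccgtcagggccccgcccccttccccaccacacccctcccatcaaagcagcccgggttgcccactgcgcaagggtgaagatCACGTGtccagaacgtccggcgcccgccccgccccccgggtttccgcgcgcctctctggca
Mcm3: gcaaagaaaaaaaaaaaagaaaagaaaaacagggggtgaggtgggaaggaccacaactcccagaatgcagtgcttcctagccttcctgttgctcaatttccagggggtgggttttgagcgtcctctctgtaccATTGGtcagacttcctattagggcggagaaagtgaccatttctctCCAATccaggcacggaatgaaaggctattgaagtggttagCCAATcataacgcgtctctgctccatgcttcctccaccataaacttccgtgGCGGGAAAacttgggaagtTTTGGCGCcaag
Top2a: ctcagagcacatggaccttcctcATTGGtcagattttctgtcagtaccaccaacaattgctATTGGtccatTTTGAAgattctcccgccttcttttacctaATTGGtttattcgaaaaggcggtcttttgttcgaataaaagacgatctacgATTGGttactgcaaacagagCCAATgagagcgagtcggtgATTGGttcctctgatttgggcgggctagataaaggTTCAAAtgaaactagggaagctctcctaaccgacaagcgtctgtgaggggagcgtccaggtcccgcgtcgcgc
These matches are a description of the letters and were not tested for binding. The 7 genes without a promoter in the table were *Aurkb*, *Ccna2*, *Ccnd1*, *Ccnd2*, *Ccne2*, *Mcm4* and *Myc*.

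The members spanned more than 2 orders of magnitude, with genes of G1 far above most genes of mitosis. Levels are given in FPKM, fragments per kilobase of transcript scaled to library size, which can be set side by side between genes. *Cdk4*, with a mean over the 12 libraries of 75.1 FPKM, and the replication clamp *Pcna*, with 71.9 FPKM, stood highest. Next came *Ccnd3* with 42.1, *Cdkn1b* with 37.8, *Cdkn2c* with 29.3 and *Ccnd1* with 28.4 FPKM. The proliferation marker *Mki67* stood lowest with 0.161 FPKM, below *Bub1* (0.196), *Aurkb* (0.238) and *Ccnb1* (0.278). In all, 9 members had a mean above 10 FPKM and 11 a mean below 1 FPKM. The test was run on the 16471 genes whose mean exceeded 1 FPKM in any of the 6 groups. These held 34 members, all except *Mki67*, *Bub1*, *Cdc6* and *Rrm2*.

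**Figure D1:**
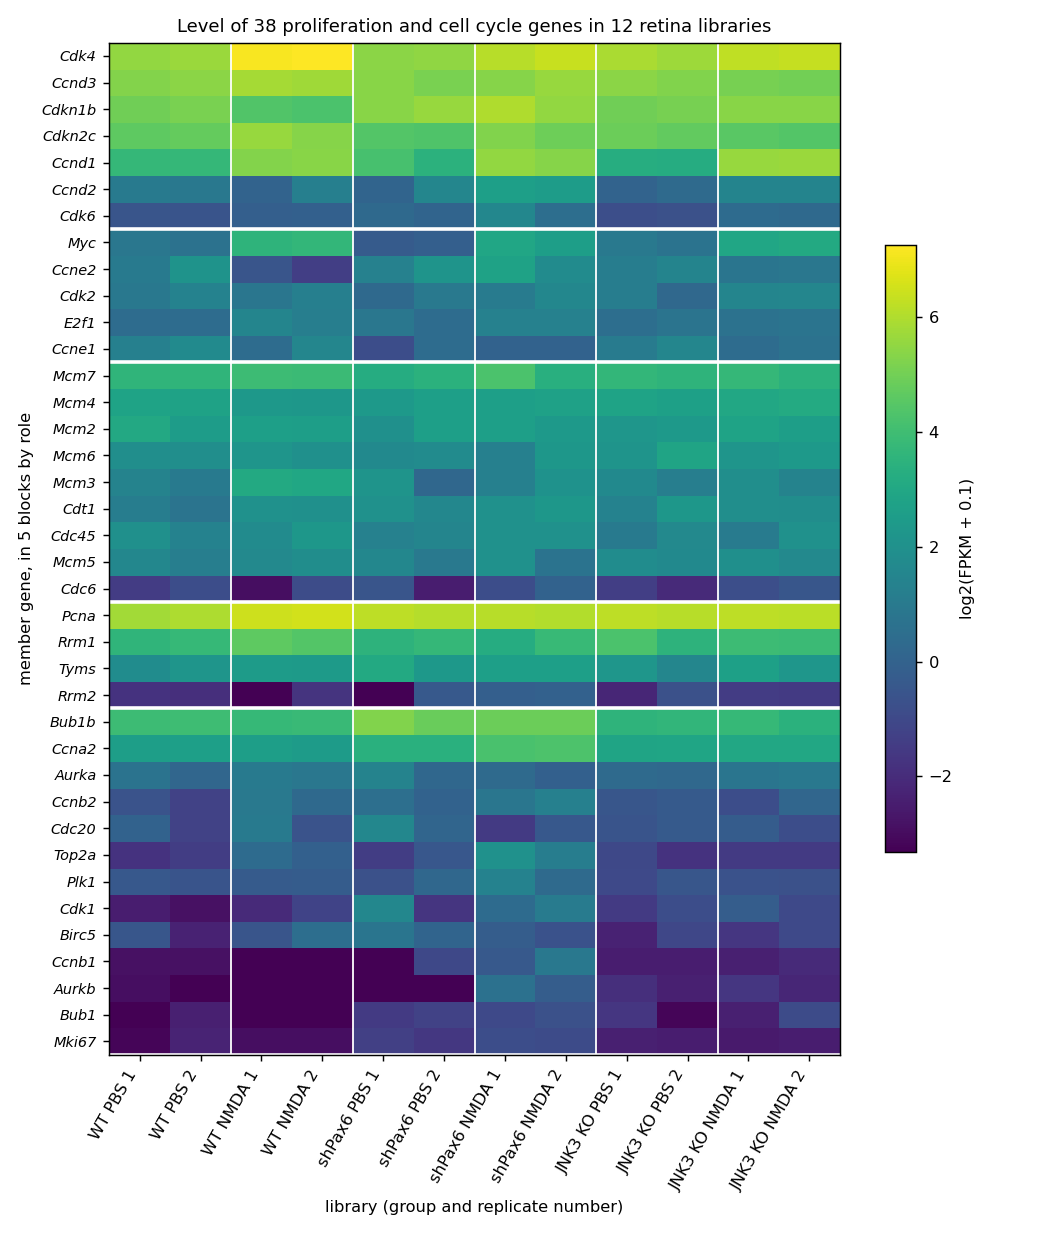
Level of the 38 genes (rows, in 5 blocks by role and by mean within a block) in the 12 libraries (columns, group and replicate number) as log2(FPKM + 0.1). *Cdk4* and *Pcna* are bright throughout, *Ccnd1* and *Myc* brighten in all 6 NMDA libraries, and *Mki67*, *Bub1*, *Aurkb* and *Ccnb1* are dark in the WT libraries.

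Facts of the whole libraries touch these values. Low FPKM fall near a grid of whole fragments, from which 1 fragment was estimated to be worth 0.0368 to 0.0467 FPKM in a transcript of 1 kb, depending on the library, and 72.0% to 87.2% of low values lay within 0.2 of a whole fragment. *Pax6* measured 173.48 and 177.3 FPKM with PBS in WT and 94.56 and 92.84 FPKM in sh*Pax6* retinas, but 55.42 and 53.81 FPKM with NMDA in WT and 67.52 and 58.73 FPKM in sh*Pax6* retinas, so a lower *Pax6* was seen under PBS and not after NMDA. *Mapk10* measured 42.79 and 50.72 FPKM with PBS in WT and 9.47 and 8.75 FPKM in JNK3 KO retinas, but 8.98 and 6 FPKM with NMDA in WT and 6.65 and 13.77 FPKM in JNK3 KO retinas, so it too was lower than WT under PBS alone. The WT NMDA libraries stood apart. Their FPKM summed to 805627 and 820180, compared with 541210 to 576922 in the other 10. Across genes, which are not independent, the log2 fold change after NMDA ran against spliced length in WT (Spearman's rho = -0.56), less so in sh*Pax6* (-0.17) and the other way in JNK3 KO retinas (0.23). Called changes in WT are therefore also given after removal of this length trend, and the part of RNA quality in them was not tested. Rescaling every library to a common sum (TPM) moved the median log2 fold change of all genes in WT from -0.09 to -0.66. Markers of rods summed to 19350 to 34200 FPKM in every library, and 4 keratins of cornea and conjunctiva stayed below 1 FPKM.

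In the response to NMDA, cyclin D1 and *Myc* were called higher in all 3 kinds of retina. *Ccnd1*, on chromosome 7 from 144929931 to 144939925 of GRCm38, encodes cyclin D1, the partner of CDK4 and CDK6. In WT it measured 13.24 and 13.25 FPKM with PBS and 39.35 and 41.48 FPKM with NMDA. In sh*Pax6* it measured 17.86 and 11.14, then 46.38 and 40.37 FPKM, and in JNK3 KO 9.46 and 9.2, then 48.94 and 50.6 FPKM. No NMDA library overlapped a PBS library in any kind of retina. The log2 fold change (log2FC, on log2(FPKM + 0.1)) was 1.60 in WT, 1.61 in sh*Pax6* and 2.40 in JNK3 KO retinas, each with a standard error (SE) of 0.18. Adjusted p-values were 5.18e-05, 0.000209 and 0.000107 by limma's test with Benjamini-Hochberg adjustment over all 16471 genes, as throughout. The change in WT was 2.25 (adjusted p = 1.7e-05) after removal of the length trend. With the spread estimated from the 2 sh*Pax6* groups alone, the call in sh*Pax6* was lost (adjusted p = 0.0743). Most of the signal lay in the coding transcript Ccnd1-201, with means of 13.19 and 40.32 FPKM in WT, 12.18 and 40.57 in sh*Pax6*, and 9.29 and 49.62 FPKM in JNK3 KO retinas. *Ccnd1* shares 1100 of its 4709 exonic bases with *LTO1*, which lay between 13.24 and 17.88 FPKM in every library and was not called. In whole retina, more cells of a type and more RNA per cell cannot be told apart, here and in what follows.

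*Myc*, on chromosome 15 from 61985391 to 61990374, encodes a transcription factor that drives growth and entry into the cycle. It measured 1.75 and 1.48 FPKM with PBS and 11.55 and 12.85 FPKM with NMDA in WT, 0.73 and 0.81, then 7.47 and 6.04 FPKM in sh*Pax6*, and 1.83 and 1.53, then 7.6 and 8.45 FPKM in JNK3 KO retinas. Again no NMDA library overlapped a PBS library. The log2FC was 2.84 (SE 0.20, adjusted p = 2.38e-06) in WT, the largest of the members there, 2.97 (adjusted p = 9.41e-06) in sh*Pax6* and 2.19 (adjusted p = 0.000305) in JNK3 KO retinas. Removal of the length trend left 2.68, 2.93 and 2.23. Under PBS, *Myc* was lower in sh*Pax6* than in WT (log2FC = -0.98, adjusted p = 0.00999). This call was lost without WT PBS replicate 1 (adjusted p = 0.0768) and with the spread of those groups alone (adjusted p = 0.0987).

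*Cdk4*, on chromosome 10 from 127063534 to 127067920, encodes the kinase that cyclin D1 activates. It measured 45.95 and 50.48 FPKM with PBS and 143.5 and 152.97 FPKM with NMDA in WT. In sh*Pax6* it measured 42.17 and 44.65, then 70.17 and 82.9 FPKM, and in JNK3 KO 60.34 and 52.85, then 75.86 and 79.77 FPKM. All NMDA libraries lay above the PBS libraries of the same kind of retina, by the widest margin in WT. The log2FC was 1.62 (adjusted p = 1.06e-06) in WT, 0.81 (adjusted p = 0.000317) in sh*Pax6* and 0.46 (adjusted p = 0.0189) in JNK3 KO retinas, each with SE 0.10. The JNK3 KO call was lost without JNK3 KO NMDA replicate 1 (adjusted p = 0.0894), JNK3 KO NMDA replicate 2 (0.14) or JNK3 KO PBS replicate 2 (0.124).

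The transcripts that carried the *Cdk4* signal differed between groups. Between 58.9% and 85.6% of its mean FPKM in a group was assigned to transcripts not annotated as protein coding. In WT, the retained-intron transcript Cdk4-209, of 468 bases, measured 7.82 and 14.11 FPKM with PBS and 63.64 and 78.92 FPKM with NMDA (adjusted p = 0.00146 over 49940 transcripts). Cdk4-208, of 924 bases and annotated as a target of nonsense-mediated decay, measured 8.54 and 11.02, then 33.2 and 29.95 FPKM (adjusted p = 0.0153). The protein-coding transcripts together measured 13.37 and 15.87, then 20.73 and 21.84 FPKM. With protein-coding transcripts alone summed for every gene, a setting added after these values were seen, the log2FC of *Cdk4* was 0.54 (adjusted p = 0.156) in WT, 1.75 (adjusted p = 0.00263) in sh*Pax6* and 0.46 (adjusted p = 0.392) in JNK3 KO retinas. Removal of the length trend left 0.57 in WT (adjusted p = 0.000847), 0.69 in sh*Pax6* and 0.58 in JNK3 KO retinas. The larger change in WT was thus not seen under either setting. *Cdk4* shares 641 of its 3249 exonic bases with *Tspan31*, which measured 51.84 and 53.48, then 107.8 and 108.59 FPKM in WT. Whether the counting used strand is not given in the sources used here, and without it reads of overlapping genes cannot be told apart there.

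**Figure D2:**
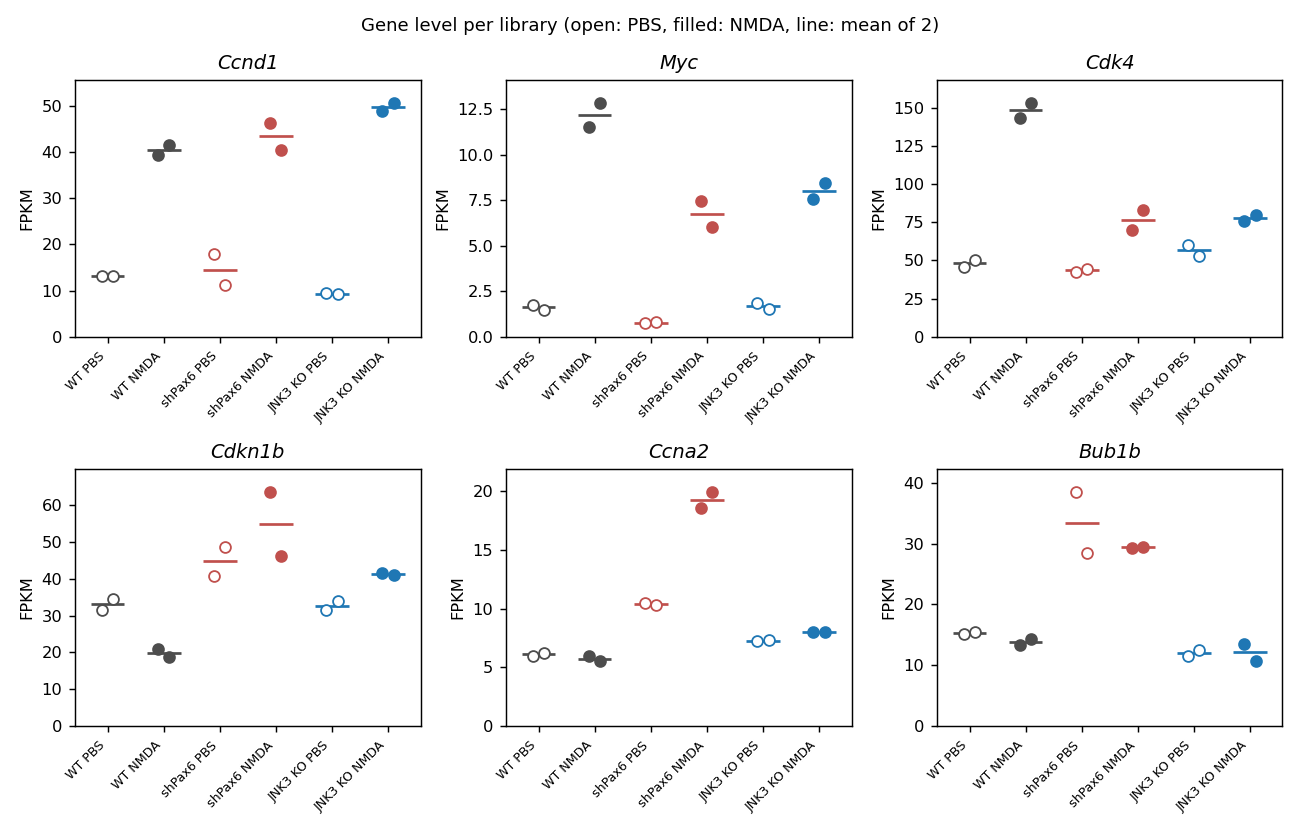
FPKM of 6 members in each library (vertical axes from 0; open circles PBS, filled circles NMDA, lines the mean of 2 libraries; grey WT, red sh*Pax6*, blue JNK3 KO). *Ccnd1*, *Myc* and *Cdk4* are higher in all NMDA than in all PBS libraries of the same kind of retina, *Cdkn1b* is lower after NMDA in WT, and *Ccna2* and *Bub1b* are highest in the sh*Pax6* libraries.

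The other D-type cyclins were called in fewer comparisons. *Ccnd2* measured 0.95 and 2.82 FPKM with PBS and 6.14 and 5.63 FPKM with NMDA in sh*Pax6* (log2FC = 1.77, SE 0.50, adjusted p = 0.0256). The call was lost without sh*Pax6* PBS replicate 1 (log2FC = 1.03, adjusted p = 0.149) or either sh*Pax6* NMDA library (adjusted p = 0.113 and 0.0834). Its coding transcript Ccnd2-201 had closer replicates, 0.95 and 1.03, then 5.08 and 5.04 FPKM (adjusted p = 0.00898 over transcripts). In JNK3 KO *Ccnd2* measured 0.92 and 1.16, then 2.64 and 2.66 FPKM (log2FC = 1.28, adjusted p = 0.151, and called on protein-coding transcripts alone at 1.29, adjusted p = 0.0418). In WT its NMDA libraries, at 0.93 and 2.28 FPKM, lay on both sides of the PBS libraries. *Ccnd3* was higher with NMDA in WT, at 57.02 and 53.26 compared with 39.57 and 42.24 FPKM (log2FC = 0.43, adjusted p = 0.0114). After removal of the length trend this was 0.21 (adjusted p = 0.181), on TPM it was -0.14 (adjusted p = 0.309), and the call was also lost without WT NMDA replicate 1 (0.0699) or WT PBS replicate 1 (0.0739). *Cdk6*, the second kinase of these cyclins, stayed between 0.49 and 2.9 FPKM and was not called in any of the 8 comparisons. In WT it measured 0.6 and 0.57, then 0.83 and 0.85 FPKM (log2FC = 0.46, adjusted p = 0.344), but after removal of the length trend it was called higher, at 2.07 (adjusted p = 0.00215).

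Both inhibitors were among the 5 most abundant members. *Cdkn1b*, which encodes p27Kip1, measured 31.46 and 34.63 FPKM with PBS and 20.98 and 18.86 FPKM with NMDA in WT. It measured 40.91 and 48.57, then 63.48 and 46.2 FPKM in sh*Pax6*, and 31.42 and 33.98, then 41.71 and 41.01 FPKM in JNK3 KO retinas. The NMDA libraries thus lay below the PBS libraries in WT, overlapped them in sh*Pax6* and lay above them in JNK3 KO. The fall in WT had a log2FC of -0.73 (SE 0.15, adjusted p = 0.00199). It differed from the response in sh*Pax6* by -1.01 (adjusted p = 0.00326) and from that in JNK3 KO by -1.07 (adjusted p = 0.00209), both called in all settings tried. After removal of the length trend the fall itself was -0.37 (adjusted p = 0.0586). In WT Cdkn1b-202, of 4552 bases, fell from 11.68 and 11.58 to 1.62 and 2.33 FPKM, and Cdkn1b-203 from 4.65 and 9.08 FPKM to values listed at 0. Cdkn1b-201, of 2393 bases, measured 15.13 and 13.98, then 19.35 and 16.53 FPKM.

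*Cdkn2c*, which encodes p18Ink4c, measured 24.81 and 27.26, then 48.69 and 40.19 FPKM in WT, and 21.66 and 20.18, then 37.53 and 30.15 FPKM in sh*Pax6*. In JNK3 KO it went the other way, from 29.32 and 26.52 to 23.47 and 21.49 FPKM (log2FC = -0.31, adjusted p = 0.184). The rises had a log2FC of 0.76 (adjusted p = 0.000763) in WT and 0.68 (adjusted p = 0.00417) in sh*Pax6*, and after removal of the length trend these were 0.05 (adjusted p = 0.771) and 0.58 (adjusted p = 0.0073). The response in sh*Pax6* exceeded that in JNK3 KO by 0.99 (adjusted p = 0.00708), or 0.80 (adjusted p = 0.0179) without the length trend.

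Of the other genes of the G1 to S transition, *Ccne2* had the largest change. It encodes cyclin E2, which with CDK2 commits a cell to replication. It measured 1.97 and 4.23 FPKM with PBS and 0.6 and 0.29 FPKM with NMDA in WT, or about 112 and 104, then 42 and 19 fragments. The log2FC of -2.52 (SE 0.49, adjusted p = 0.00158) was called under all settings tried, and was -2.62 (adjusted p = 0.00196) after removal of the length trend. Of the mean level with PBS in WT, 54.3% was assigned to transcripts not annotated as protein coding. On protein-coding transcripts alone the log2FC was -1.52 (adjusted p = 0.00373). *Ccne2* shares 609 of its 3495 exonic bases with *Ints8*, which measured 13.99 and 15.5, then 10.59 and 19.54 FPKM in WT. In sh*Pax6* *Ccne2* measured 2.41 and 4.31, then 6.72 and 3.34 FPKM, and in JNK3 KO 2.17 and 2.63, then 1.65 and 1.74 FPKM, neither called. The other cyclin E gene, *Ccne1*, was lower under PBS in sh*Pax6* than in WT, at 0.46 and 1.24 compared with 2.35 and 3.25 FPKM (log2FC = -1.73, adjusted p = 0.0405). That call was lost without sh*Pax6* PBS replicate 1 (adjusted p = 0.206), WT PBS replicate 1 (0.114) or WT PBS replicate 2 (0.219). *E2f1* measured 1.22 FPKM in both PBS libraries and 2.72 and 2.18 FPKM with NMDA in WT (log2FC = 0.94, adjusted p = 0.0117, lost without WT NMDA replicate 1 at 0.0617). It was 1.23 (adjusted p = 0.00419) after removal of the length trend and 0.41 (adjusted p = 0.223) on TPM. In sh*Pax6* it measured 1.74 and 1.22, then 2.38 and 2.41 FPKM (log2FC = 0.68, adjusted p = 0.0814). *Cdk2* stayed between 1.08 and 2.91 FPKM and was not called.

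The licensing genes load and fire the replicative helicase at origins. Of the 9 (*Cdc45*, *Cdc6*, *Cdt1* and *Mcm2* to *Mcm7*), none was called after NMDA in sh*Pax6* or JNK3 KO retinas, although *Mcm3* was on protein-coding transcripts alone in sh*Pax6* (log2FC = 0.87, adjusted p = 0.0223). In WT, *Cdt1* and *Mcm3* were called higher and *Mcm4* lower. *Cdt1*, a loader of the helicase, measured 2.11 and 1.6, then 3.99 and 3.91 FPKM (log2FC = 1.06, adjusted p = 0.014), and 0.89 after removal of the length trend (adjusted p = 0.0411) but 0.52 on TPM (adjusted p = 0.186). *Mcm3*, a helicase subunit, measured 2.52 and 1.88, then 8.55 and 7.89 FPKM (log2FC = 1.87, adjusted p = 0.0159), and 1.71 after removal of the length trend (adjusted p = 0.0309) but 1.32 on TPM (adjusted p = 0.0665). Both calls were lost without WT NMDA replicate 1 (adjusted p = 0.0595 and 0.0749), WT NMDA replicate 2 (0.054 and 0.0609) or WT PBS replicate 2 (0.0969 and 0.0952). For *Mcm3*, 72.9% of the mean level with NMDA was assigned to transcripts not annotated as protein coding. The coding transcript Mcm3-201 measured 1.55 and 1.88, then 2.27 and 2.18 FPKM, and the retained-intron transcript Mcm3-203, of 716 bases, was listed at 0 in both PBS libraries and reached 6.28 and 1.91 FPKM with NMDA. *Mcm4* measured 6.9 and 6.79, then 4.87 and 4.7 FPKM (log2FC = -0.51, adjusted p = 0.00911), and 0.09 after removal of the length trend. The other subunits of the same ring, *Mcm2*, *Mcm5*, *Mcm6* and *Mcm7*, had a log2FC of -0.17, 0.37, 0.20 and 0.29, none called.

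A split between transcripts was also present in DNA synthesis genes. *Rrm1*, the large subunit of ribonucleotide reductase, measured 11.86 and 13.4, then 24.44 and 21.72 FPKM in WT (log2FC = 0.86, SE 0.25, adjusted p = 0.0145). Its estimated fragments were fewer with NMDA, about 877 and 976, than with PBS, about 1059 and 1231. The log2FC was 1.28 after removal of the length trend (adjusted p = 0.00333), and on TPM 0.29 (adjusted p = 0.331). The call was also lost without WT NMDA replicate 1 (adjusted p = 0.0836) or WT PBS replicate 1 (0.0885). Its coding transcript Rrm1-201, of 3997 bases, went the other way, from 11.68 and 12.44 to 6.16 and 8.52 FPKM (log2FC = -0.73, adjusted p = 0.0226 over transcripts). Rrm1-202, of 747 bases and annotated as a target of nonsense-mediated decay, measured 0 and 0.87, then 18.28 and 13.2 FPKM. On protein-coding transcripts alone *Rrm1* was called lower (log2FC = -0.73, adjusted p = 0.00533). *Pcna* measured 55.6 and 62.18, then 87.24 and 93.39 FPKM in WT (log2FC = 0.62, adjusted p = 9.54e-05), and 65.43 to 73.76 FPKM in the 8 sh*Pax6* and JNK3 KO libraries. After removal of the length trend the WT change was 0.10 (adjusted p = 0.305). *Tyms*, thymidylate synthase, stayed between 2.81 and 8.39 FPKM and was not called. Its protein-coding transcripts, however, measured 0 and 0.29, then 4.27 and 1.07 FPKM in sh*Pax6*, compared with 0.8 and 1.31, then 1.08 and 0.5 FPKM in WT. On these alone it was called higher with NMDA in sh*Pax6* (log2FC = 3.52, adjusted p = 0.00679) and lower under PBS in sh*Pax6* than in WT (-2.51, adjusted p = 0.0471), and the response in WT differed from that in sh*Pax6* by -3.94 (adjusted p = 0.0122). The response in sh*Pax6* likewise differed from that in JNK3 KO, by 4.07 (adjusted p = 0.0294). *Rrm2*, the small reductase subunit induced in S phase, did not exceed 0.88 FPKM.

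**Figure D3:**
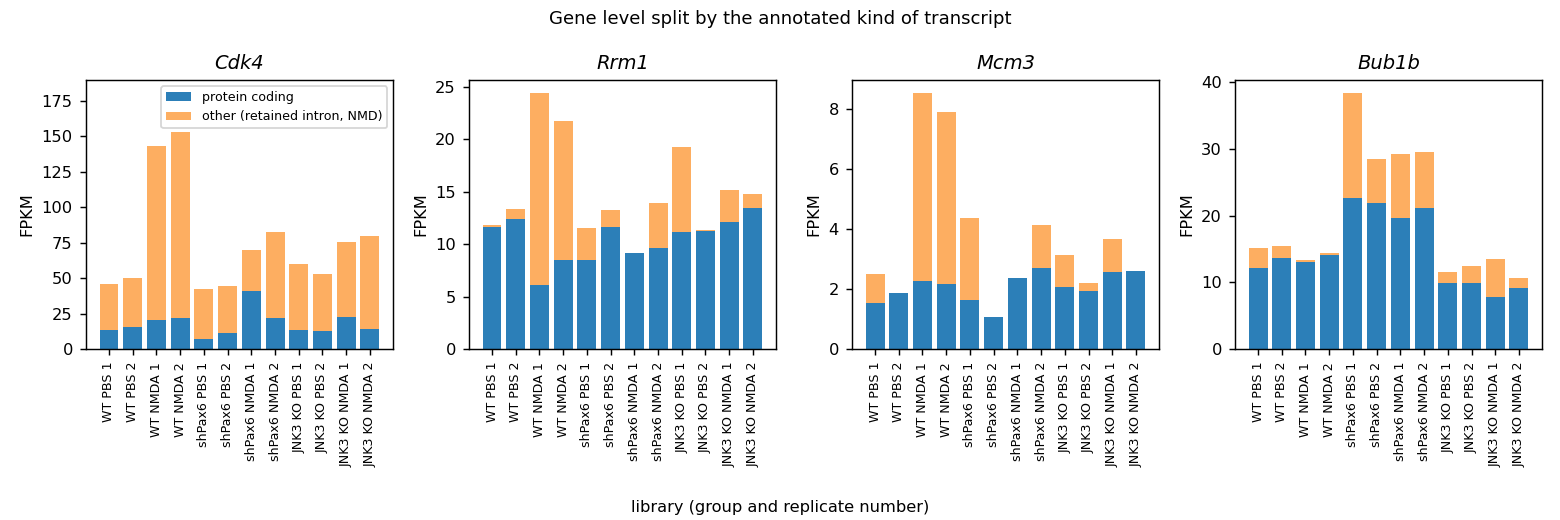
FPKM of 4 members in each library (bars from 0; group and replicate number below), split into transcripts annotated as protein coding (blue) and all others (orange). In the 2 WT NMDA libraries the added height of *Cdk4*, *Rrm1* and *Mcm3* is orange for the most part, whereas *Bub1b* is higher in blue in the 4 sh*Pax6* libraries.

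Of the 13 mitotic members, *Bub1b*, *Ccna2* and *Mki67* were higher in all 4 sh*Pax6* libraries than in the other 8, and 10 were not. The share of all genes in the same position was not counted, so these numbers are a description of the members and not set against a background. The 13 levels summed to 45.61 to 62.6 FPKM in the 4 sh*Pax6* libraries and to 22.87 to 27.65 FPKM in the other 8, and *Bub1b* and *Ccna2* were the largest terms. *Bub1b*, on chromosome 2 from 118598211 to 118641591, encodes the spindle checkpoint protein BUBR1. Under PBS it measured 38.42 and 28.5 FPKM in sh*Pax6* and 15.1 and 15.46 FPKM in WT (log2FC = 1.11, SE 0.15, adjusted p = 0.00142, lost with the spread of these groups alone at 0.0703). On protein-coding transcripts alone this was 0.79 (adjusted p = 0.000999), and Bub1b-201 measured 22.65 and 21.92 compared with 12.17 and 13.62 FPKM. With NMDA *Bub1b* measured 29.21 and 29.53 FPKM in sh*Pax6*, 13.38 and 14.34 FPKM in WT and 13.55 and 10.72 FPKM in JNK3 KO, and no response was called.

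*Ccna2*, on chromosome 3 from 36564865 to 36572150, encodes cyclin A2, which acts in S phase and at entry into mitosis. Under PBS it measured 10.46 and 10.33 FPKM in sh*Pax6* and 5.96 and 6.25 FPKM in WT (log2FC = 0.76, adjusted p = 0.00157, lost with the spread of these groups alone at 0.0575). With NMDA it rose further in sh*Pax6*, to 18.57 and 19.87 FPKM (log2FC = 0.88, SE 0.11, adjusted p = 0.000317). It measured 5.92 and 5.5 FPKM with NMDA in WT, and 7.2 and 7.29, then 8.02 and 8.03 FPKM in JNK3 KO retinas. The sh*Pax6* libraries were thus above the other 8 both with and without NMDA. The response in sh*Pax6* exceeded that in JNK3 KO by 0.73 (adjusted p = 0.0106), and the response in WT differed from it by -0.98 (adjusted p = 0.000671). The coding transcript Ccna2-201 measured 9.05 and 9.27, then 15.83 and 15.96 FPKM in sh*Pax6*. *Ccna2* shares 510 of its 4083 exonic bases with *Exosc9*, which measured 16.36 and 19.16, then 23.05 and 23.59 FPKM in sh*Pax6*, and 19.93 and 24.38, then 37.85 and 44.58 FPKM in WT, where *Ccna2* was not called.

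Several of the remaining mitotic genes rested on few fragments in WT, about 0 to 2 for *Ccnb1*, 0 to 1 for *Aurkb* and *Bub1* and 2 to 18 for *Mki67*, compared with 44 to 83 for *Aurka* and 30 to 37 for *Plk1*. *Mki67*, which encodes the proliferation antigen Ki-67, measured 0.01 and 0.11 FPKM with PBS and 0.03 in both libraries with NMDA in WT, 0.3 and 0.23, then 0.46 and 0.44 FPKM in sh*Pax6*, and 0.09 and 0.08, then 0.07 and 0.08 FPKM in JNK3 KO. These are about 2 and 18, 8 and 7, 75 and 49, 98 and 102, 22 and 22, and 18 and 19 fragments. The 4 sh*Pax6* libraries were above the other 8, at levels under the filter. Without the filter, the difference from WT under PBS was 1.26 (SE 0.38, adjusted p = 0.0871) and the response in sh*Pax6* 0.60 (adjusted p = 0.363). *Aurkb*, the kinase of the chromosomal passenger complex, was listed at 0 in both sh*Pax6* PBS libraries and reached 1.44 and 0.78 FPKM with NMDA, about 15 and 30 fragments. It passed the filter through this group alone, so that it had to differ there, and its adjusted p of 0.0052 is given as a description. Its protein-coding transcripts were listed at 0 and 0.78 FPKM in these libraries, and 64.9% of the mean was assigned to other transcripts. *Aurkb* did not exceed 0.22 FPKM in WT and JNK3 KO libraries. *Ccnb1*, cyclin B1, measured 0 and 0.39, then 0.67 and 1.81 FPKM in sh*Pax6* (log2FC = 2.45, SE 0.88, adjusted p = 0.0653) and at most 0.14 FPKM elsewhere. Like *Aurkb*, it passed the filter through sh*Pax6* NMDA alone, so its adjusted p is given as a description.

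*Top2a*, the topoisomerase that untangles chromosomes, measured 0.28 and 0.63, then 3.93 and 2.11 FPKM in sh*Pax6* (log2FC = 2.50, adjusted p = 0.00653), and 0.19 and 0.28, then 1.21 and 0.85 FPKM in WT (log2FC = 1.75, adjusted p = 0.0169). In fragments these levels were about 24 and 69, then 93 and 126 in sh*Pax6*, and 15 and 17, then 22 and 12 in WT. By fragments the WT libraries thus overlapped. *Top2a* passed the filter through sh*Pax6* NMDA and WT NMDA alone, where it was high, so its adjusted p-values are given as a description. The change in WT was 1.68 after removal of the length trend (adjusted p = 0.0282), and on TPM 1.37 (adjusted p = 0.0588). The WT call was also lost without WT NMDA replicate 1 (adjusted p = 0.0796) or WT PBS replicate 1 (0.0774). Of the mean levels with NMDA, 78.3% in sh*Pax6* and 99.0% in WT were assigned to transcripts not annotated as protein coding. The coding transcripts measured 0.17 and 0.63, then 0.4 and 0.91 FPKM in sh*Pax6*, and 0.12 and 0.11, then 0 and 0.02 FPKM in WT. *Ccnb2*, cyclin B2, measured 0.56 and 0.32, then 1.85 and 1.12 FPKM in WT (log2FC = 1.55, adjusted p = 0.0172), and 1.06 after removal of the length trend (adjusted p = 0.0966). That call was also lost without WT NMDA replicate 1 (adjusted p = 0.104) or WT PBS replicate 2 (0.106). *Cdk1*, the mitotic kinase, measured 2.89 and 0.21 FPKM with PBS in sh*Pax6* and was not called. *Plk1* (0.41 to 2.45 FPKM), *Aurka* (0.84 to 2.54), the survivin gene *Birc5* (0.1 to 1.62) and the anaphase activator *Cdc20* (0.25 to 2.86) were not called in any comparison.

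**Figure D4:**
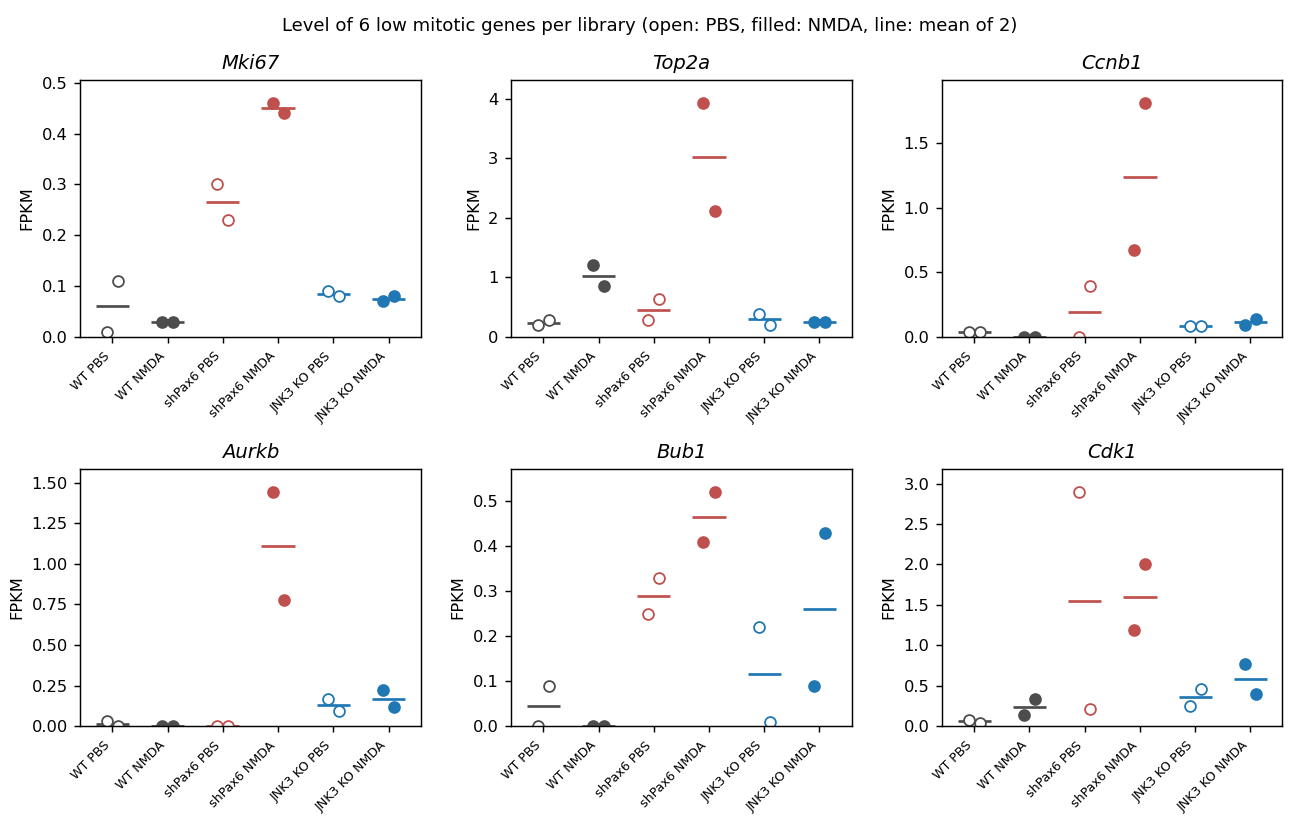
FPKM of 6 low mitotic members in each library (vertical axes from 0; open circles PBS, filled circles NMDA, lines the mean of 2 libraries; grey WT, red sh*Pax6*, blue JNK3 KO). *Mki67* is at 0.46 and 0.44 FPKM in the sh*Pax6* NMDA libraries and at 0.01 to 0.11 FPKM in the WT and JNK3 KO libraries, and *Aurkb* is listed at 0 in both sh*Pax6* PBS libraries.

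Under PBS, 13 of the 38 members were above WT in both sh*Pax6* libraries. Of these, 8 were mitotic (*Birc5*, *Bub1*, *Bub1b*, *Ccna2*, *Ccnb2*, *Cdc20*, *Cdk1* and *Mki67*), and no mitotic member was below. Another 7 members were below (*Ccne1*, *Cdk4*, *Cdkn2c*, *Mcm4*, *Mcm6*, *Mcm7* and *Myc*). Among the 27761 genes with any signal, 15.0% were above and 27.7% below in the same way. At an adjusted p under 0.05, 4 members were called, *Bub1b* and *Ccna2* higher and *Ccne1* and *Myc* lower, and 16.5% of all genes in either direction. With the spread of these groups alone no member was called by limma's test. Between JNK3 KO and WT under PBS, limma's test called no member and 1.51% of all genes. Before adjustment 4 of the 34 tested members were higher and 1 lower with p under 0.05, compared with 1508 and 984 of all 16471 genes. *Ccnd1* (9.46 and 9.2 compared with 13.24 and 13.25 FPKM, log2FC = -0.50, adjusted p = 0.225) was called on protein-coding transcripts alone (adjusted p = 0.0296).

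After NMDA in WT, 12 of the 34 tested members were called higher and 3 lower, at a background of 26.0% of all genes higher and 33.8% lower. *Top2a* is among the 12 through its filter, and with the filter set on the mean over all libraries 11 were called higher. The median log2FC was 0.43 for the members and -0.09 for all genes. Without WT NMDA replicate 1, 5 were called higher. After removal of the length trend 8 of the 12 kept their call (*Ccnd1*, *Cdk4*, *Cdt1*, *E2f1*, *Mcm3*, *Myc*, *Rrm1* and *Top2a*) and *Cdk6* gained one, 9 in all. On TPM 3 were called higher (*Ccnd1*, *Cdk4* and *Myc*). In sh*Pax6*, 8 were called higher (*Aurkb*, *Ccna2*, *Ccnd1*, *Ccnd2*, *Cdk4*, *Cdkn2c*, *Myc* and *Top2a*), at a background of 19.1%, and none lower, at 11.0%. *Aurkb* and *Top2a* are among the 8 through the filter, which they passed by NMDA groups alone. With the filter set on the mean over all libraries, which neither passed, 6 were called. The median there was 0.52 for the members and 0.10 for all genes. Before adjustment limma's test gave 11 of the 34 members higher and 1 lower with p under 0.05, compared with 4249 and 2495 of all 16471 genes. In JNK3 KO, 3 were called higher (*Ccnd1*, *Cdk4* and *Myc*), at a background of 4.33%, and none lower, at 6.1%. The median was 0.18 and -0.01, and before adjustment 7 were higher and 2 lower with p under 0.05, compared with 1834 and 2152 of all 16471 genes.

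By the range of libraries, 20 of the 38 members were above and 6 below in WT, where 24.5% and 34.4% of genes with any signal were. In sh*Pax6* 18 were above and 2 below, compared with 23.5% and 15.6%, and in JNK3 KO 14 and 4, compared with 21.2% and 23.5%.

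**Figure D5:**
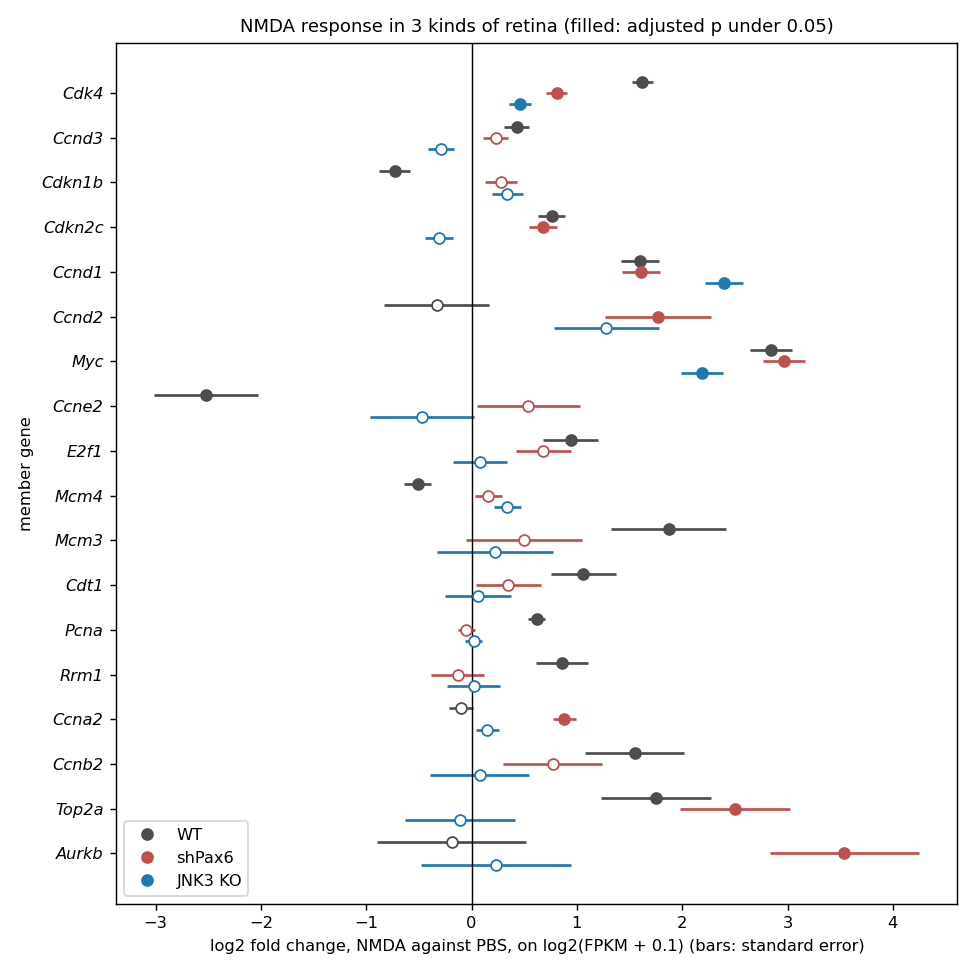
Log2 fold change of NMDA against PBS on log2(FPKM + 0.1), with standard errors (horizontal axis), for the 18 members called in at least 1 kind of retina (rows, ordered by role; grey WT, red sh*Pax6*, blue JNK3 KO; filled symbols have an adjusted p under 0.05). *Ccnd1* lies at 1.60 to 2.40 and *Myc* at 2.19 to 2.97 in all 3, *Ccna2* and *Aurkb* are filled in sh*Pax6* alone, and *Cdkn1b* and *Ccne2* lie below 0 in WT.

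Differences between responses were tested directly, in comparisons that share libraries. WT differed from sh*Pax6* in 9 members, at a background of 49.7% of all genes, and from JNK3 KO in 8, at 51.4%. The 9 include *Aurkb*, which passed the filter through sh*Pax6* NMDA alone and is not read as a difference. The responses of sh*Pax6* and JNK3 KO differed in 3 (*Ccna2*, *Cdkn2c* and *Top2a*), at 17.7%. Of these, *Top2a* passed the filter through WT NMDA and sh*Pax6* NMDA alone and is not read as a difference. For *Ccne2* the response in WT differed from that in sh*Pax6* by -3.06 (adjusted p = 0.00534), called in all settings tried, and from that in JNK3 KO by -2.05 (adjusted p = 0.0327). The latter was lost when any library other than WT NMDA replicate 1 or WT PBS replicate 1 was left out (adjusted p up to 0.129), and with a pseudocount of 1 (0.0867). For *Ccnd1*, WT differed from JNK3 KO by -0.80 (adjusted p = 0.026). This difference was -0.07 after removal of the length trend, and it was lost when any of the 8 libraries was left out (adjusted p up to 0.0817). Calls against sh*Pax6* were also lost after removal of the length trend for *Ccnd2* (-1.20, adjusted p = 0.212), *Cdk4* (-0.12, 0.506), *Mcm4* (-0.13, 0.639) and *Pcna* (0.23, 0.115). Against JNK3 KO they were lost for *Ccnd3* (0.45, 0.064), *Cdk4* (-0.01, 0.963), *Cdkn2c* (0.26, 0.288), *Mcm4* (-0.18, 0.507) and *Pcna* (-0.01, 0.958) by limma's test, while *Rrm1* and *E2f1* (1.17, 0.0358) were gained, as was *Cdkn2c* against sh*Pax6* (-0.53, 0.0421). For *Myc* no difference between responses was called (adjusted p = 0.732, 0.0796 and 0.0883).

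A list of 120 other cell cycle genes, 99 of them tested, was examined beside the members. After NMDA 26 rose and 29 fell in WT, 14 rose and 1 fell in sh*Pax6*, and 5 rose and 2 fell in JNK3 KO, with a median log2FC of -0.19, 0.13 and 0.01. These were 26.3% and 29.3% of the list in WT, compared with 26.0% and 33.8% of all genes, 14.1% and 1.0% in sh*Pax6*, compared with 19.1% and 11.0%, and 5.1% and 2.0% in JNK3 KO, compared with 4.33% and 6.1%. The kinase inhibitor *Cdkn1a* (p21), a target of p53, measured 3.83 and 4.61, then 15.24 and 14.41 FPKM in WT (log2FC = 1.79, adjusted p = 2.28e-05), and 4.33 and 5.71, then 8.31 and 8.05 FPKM in JNK3 KO (log2FC = 0.71, adjusted p = 0.0375). *Cks1b*, a small kinase subunit that helps degrade p27Kip1, measured 3.39 and 2.87, then 17.86 and 10.08 FPKM in WT (log2FC = 2.07, adjusted p = 0.000265), and 2.42 and 2.23, then 7.47 and 6.1 FPKM in JNK3 KO (log2FC = 1.5, adjusted p = 0.015). After removal of the length trend the changes in WT were 1.58 (adjusted p = 0.000114) for *Cdkn1a* and 0.95 (adjusted p = 0.0303) for *Cks1b*. *Cdkn2b*, the inhibitor p15Ink4b, measured 0.1 and 0.53, then 3.56 and 2.03 FPKM in sh*Pax6* (log2FC = 2.98, adjusted p = 0.00277). In WT its log2FC was 1.67 (adjusted p = 0.0217), and 1.05 after removal of the length trend (adjusted p = 0.142). Of the WT and sh*Pax6* groups, *Cdkn2b* had a mean above 1 FPKM in the NMDA groups alone, so its adjusted p-values are given as a description.

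The largest fall of the list in WT was that of *Rb1*, the retinoblastoma gene, from 18.92 and 16.83 to 1.99 and 3.83 FPKM (log2FC = -2.65, adjusted p = 1.41e-05, and -1.80 after removal of the length trend). The checkpoint kinase *Chek1* followed, from 1.1 and 0.59 to 0.02 and 0.25 FPKM (log2FC = -2.15, adjusted p = 0.0389), then the DREAM subunit *Lin54* (log2FC = -1.87, adjusted p = 0.000489). After removal of the length trend these were -2.72 (adjusted p = 0.0203) and -1.17 (adjusted p = 0.00937). In sh*Pax6* *Chek1* went the other way, from 0.04 and 0.47 to 1.34 and 2.61 FPKM (log2FC = 2.81, adjusted p = 0.0245). The spindle midzone gene *Prc1* rose there from 0.96 and 0.28 to 3.64 and 1.95 FPKM (log2FC = 2.13, adjusted p = 0.0301), and the checkpoint gene *Mad2l1* fell from 9.28 and 9.51 to 4.67 and 5.79 FPKM (log2FC = -0.84, adjusted p = 0.00651). Of the WT and sh*Pax6* groups, *Chek1* had a mean above 1 FPKM in sh*Pax6* NMDA alone. Within sh*Pax6* the same was true of *Prc1*. The adjusted p-values of both in sh*Pax6* are therefore given as a description. In JNK3 KO the others named by the same rule were the p53 target *Ccng1* (log2FC = 0.40, adjusted p = 0.0093), the DREAM subunit *Lin37* (-0.75, adjusted p = 0.0456) and the MYC antagonist *Mxd1* (-0.55, adjusted p = 0.0162).

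Markers of other cell types are given beside these results. In sh*Pax6*, all 5 monocyte and macrophage markers were called higher with NMDA, and their sum was 45.57 and 46.71, then 354.8 and 356.3 FPKM. There 5 neutrophil markers summed to 6.98 and 7.78, then 63.58 and 74.91 FPKM (4 called higher), 4 T cell markers to 0.45 and 2.29, then 4.66 and 8.2 FPKM (none called), and 3 B cell markers to 0 and 0.06, then 3.37 and 3.39 FPKM (1 called). In the T cell list *Cd8a*, and in the B cell list *Ms4a1*, stayed below 1 FPKM in every library, and the other markers of these lists did not. The 5 microglial markers summed to 24.33 and 26.32, then 44.16 and 46.81 FPKM (1 called higher). The 5 Müller glia markers summed to 1470 and 1549, then 2378 and 2543 FPKM (2 called higher and 1 lower). With PBS in WT the Müller glia markers summed to 576.1 and 584.3 FPKM, and 3 were called higher and 1 lower in sh*Pax6* than in WT under PBS. In WT neutrophil markers summed to 210.0 and 233.1, then 1949 and 1995 FPKM. In JNK3 KO, where *Ccnd1* and *Myc* were higher with NMDA as well, neutrophil markers summed to 150.1 and 164.6, then 15.44 and 16.44 FPKM (4 called lower). Those of monocytes and macrophages summed to 92.15 and 98.62, then 80.12 and 80.96 FPKM (2 called higher and 2 lower). The 6 RGC markers summed to 342.3 and 356.1, then 149.8 and 154.0 FPKM in WT, 101.3 and 101.7, then 18.09 and 24.23 FPKM in sh*Pax6*, and 310.7 and 320.6, then 74.5 and 76.11 FPKM in JNK3 KO. Values of a pair of sums are given from lower to higher. The part of immune cells, glia or lost neurons in the changes of the cell cycle genes was not tested.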

How the data were processed

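Poly(A) RNA of pooled mouse retinas was sequenced in 12 libraries. The authors aligned the reads with STAR 2.7.1a to GRCm38.p6, estimated abundances with RSEM 1.3.3 and deposited the resulting FPKM for genes and for transcripts, with edgeR 3.36.0 and R 4.1.0 also named in the submitters' notes. Samples were grouped by their labels. FPKM were put on log2(FPKM + 0.1), and features with any group mean over 1 FPKM were kept (16471 genes, 49940 transcripts). Means of the 6 groups were fitted with limma 3.58.1 in R 4.3.3, leaving 6 residual degrees of freedom and using an intensity trend, and features with a Benjamini-Hochberg adjusted p under 0.05 were called. The length trend was removed from each library by lowess (span 0.3). FPKM hold no counts, so fragments were estimated from steps of low values, and their precision was judged from replicates. The members, the list of 120 other cell cycle genes and the marker lists were chosen with earlier results of these data known. Members were named in full where called in any comparison and otherwise by range. Of the list, up to 3 of the largest rises and falls called in each response, with no overlap of NMDA and PBS libraries, were named. A mean above 1 FPKM in a compared group was also planned for these, and *Chek1* in WT did not reach it. Replicate numbers did not pair the samples (15 pairs of groups, r between -0.1 and 0.09), so no block was used. Gene models and transcript types came from the matching mouse annotation, and overlapping genes and copies (minimap2 2.31) were checked. Alternatives were a pseudocount of 1, no filter, a minimum set on the mean over the 12 libraries, TPM, quantile normalization, the spread of the compared groups alone, a replicate block, removal of the length trend, the study's thresholds on p and fold (unadjusted p under 0.05 with a log2 fold change beyond 1, without its limit on the variance-mean ratio) and each library left out. Summing protein-coding transcripts alone was added after seeing the data. Python 3.11.15 with matplotlib 3.10.9 made the figures.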

Additional observations from a re-analysis of the deposited data

Results flagged for a closer look

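The response to NMDA was compared between kinds of retina by a direct test of the difference (adjusted p under 0.05 by limma's test), in comparisons that share libraries. Of the 34 tested members, 9 were called between WT and sh*Pax6*, at a background of 49.7% of all genes. Another 8 calls were made between WT and JNK3 KO, at 51.4%, and 3 between sh*Pax6* and JNK3 KO, at 17.7%. Between WT and sh*Pax6*, the difference on the log2 scale (WT minus sh*Pax6*) was -3.06 for *Ccne2*, -2.10 for *Ccnd2*, -1.01 for *Cdkn1b*, -0.98 for *Ccna2* and -0.67 for *Mcm4*. It was 0.67 for *Pcna*, 0.81 for *Cdk4* and 0.99 for *Rrm1*. The value of -3.73 for *Aurkb* is set by the sh*Pax6* NMDA libraries, through which alone it passed the filter, against values at or near 0, and is not read as a difference. Between WT and JNK3 KO it was -2.05 for *Ccne2*, -1.07 for *Cdkn1b*, -0.85 for *Mcm4* and -0.80 for *Ccnd1*. It was 0.60 for *Pcna*, 0.72 for *Ccnd3*, 1.08 for *Cdkn2c* and 1.16 for *Cdk4*. Between sh*Pax6* and JNK3 KO it was 0.73 for *Ccna2*, 0.99 for *Cdkn2c* and 2.61 for *Top2a*. The value for *Top2a* is not read as a difference either, since it passed the filter through WT NMDA and sh*Pax6* NMDA alone. The calls for *Ccnd2* (adjusted p up to 0.115), *Rrm1* (up to 0.162), *Ccnd1* (up to 0.0817), *Ccne2* against JNK3 KO (up to 0.129) and *Top2a* (up to 0.119) were lost when single libraries of the groups compared were left out. After removal of the length trend no call remained against sh*Pax6* for *Ccnd2* (-1.20), *Cdk4* (-0.12), *Mcm4* (-0.13) and *Pcna* (0.23), against JNK3 KO for *Ccnd1* (-0.07), *Ccnd3* (0.45), *Cdk4* (-0.01), *Cdkn2c* (0.26), *Mcm4* (-0.18) and *Pcna* (-0.01), and between sh*Pax6* and JNK3 KO for *Top2a* (2.56, adjusted p = 0.0556 by limma's test).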

How the results depend on the processing

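Of 50 called values of single members, 11 kept their call under all settings in which they were tested, 34 with each library left out, and 43 were never reversed. With the minimum set on the mean over the 12 libraries, 45 were tested, and those of *Aurkb* and *Top2a* were not. The 11 include the values of *Aurkb* in sh*Pax6* and in WT minus sh*Pax6*, and the 34 also include *Top2a* in sh*Pax6*. These rest on the filter and are not read as stable results. Members called higher after NMDA in WT numbered 12, but 3 on TPM, 7 by the study's thresholds on p and fold and 5 to 10 with a library left out. Those called lower numbered 3, but 6 on TPM and 1 after removal of the length trend or by the study's thresholds on p and fold. In sh*Pax6* 8 were called higher, but 3 with the spread of the compared groups alone, and 0 lower, but 1 by the study's thresholds on p and fold and 0 to 1 with a library left out (1 without sh*Pax6* PBS replicate 2). Under PBS 4 members differed between sh*Pax6* and WT, 0 with the spread of those groups alone and 2 (without WT PBS replicate 1) to 7 (without sh*Pax6* PBS replicate 2) with a library left out. Between JNK3 KO and WT under PBS 0 differed by limma's test, and 1 on protein-coding transcripts alone. The response of WT differed from that of JNK3 KO in 8 members, 13 with the spread of those groups alone and 4 after removal of the length trend. That of sh*Pax6* differed from that of JNK3 KO in 3, 5 on protein-coding transcripts alone and 2 to 7 with a library left out (7 without sh*Pax6* PBS replicate 2, and 6 and 5 when sh*Pax6* NMDA replicate 2 or 1 was dropped). Values that changed sign in WT were *Mcm4* (0.09 after removal of the length trend), *Ccnd3* (-0.14 on TPM) and *Rrm1* (-0.73 on protein-coding transcripts alone). In WT minus sh*Pax6* they were *Cdk4* (-0.12 after removal of the length trend, -1.20 on protein-coding transcripts alone) and *Rrm1* (-0.64 on protein-coding transcripts alone), and in WT minus JNK3 KO *Cdk4* (-0.01) and *Pcna* (-0.01) after removal of the length trend and *Pcna* (-0.00) on quantile normalization. Beyond what the settings change by construction, the cause was not tested. With the replicate number as a block, 12 members were called higher in WT, 8 in sh*Pax6* and 3 in JNK3 KO, and 48 of the 50 single calls were kept. The samples share only a number, since no pair of groups had a correlation above 0.1. With a library left out, the lone library of a group is assumed to vary like the other groups.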
